A study of Homo sapiens with 9 samples.

Results

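Definitive endoderm with both copies of CHD7 deleted was compared with definitive endoderm with 1 copy deleted, to describe what loss of the second copy adds across all expressed genes. The comparison takes 3 RNA-sequencing libraries labelled homozygous and 3 labelled heterozygous, chosen by their labels, out of 9 libraries in the series. The remaining 3 libraries are the CHD7+/+ controls, and their levels are given beside many of the results. All 9 come from H9, an established human embryonic stem cell line. CHD7 was edited in these stem cells with CRISPR/Cas9 to give CHD7+/- and CHD7-/- lines, which were kept in mTeSR Plus medium on Matrigel and then differentiated to definitive endoderm. The differentiation protocol, the day of harvest, the stretch of CHD7 that was deleted and the number of clones behind each genotype are stated in none of the sources at hand. A genotype may therefore stand for 1 clone, and clone and genotype cannot be told apart. Nothing in the labels says that the 3 libraries of a genotype came from separate cultures, so each p-value speaks for the scatter among these libraries alone, and that scatter may be technical.

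CHD7 is an ATP-dependent chromatin remodeller of the chromodomain helicase family that slides nucleosomes, acts largely at enhancers and is dosage sensitive. Loss of a single copy in people causes CHARGE syndrome, which affects the eye, ear, heart, cranial nerves and the structures that form from the pharyngeal endoderm and neural crest. Definitive endoderm, the germ layer that gives rise to the lining of the gut and to the lung, liver and pancreas, forms under Nodal and activin signalling and is recognised by transcription factors such as SOX17, FOXA2 and GATA6 and by the receptor CXCR4.

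Levels are given in CPM, the count scaled to the library's TMM-adjusted total, and differences as log2 fold changes of homozygous over heterozygous, positive when homozygous is higher. A gene was called when edgeR's quasi-likelihood test gave a Benjamini-Hochberg adjusted p below 0.05 over 16837 tested genes. The total count lay between 23488722 and 30581464 in the heterozygous libraries and was 11854173, 29849352 and 19911079 in the homozygous ones, so homozygous replicate 1 was the shallowest of the 9. Homozygous replicate 2 and heterozygous replicate 3 stood apart from their replicates, most clearly by the GC content of the transcripts. Genes whose longest transcript has under 40% GC sat at a median log2 deviation of -0.26 from the mean of the 9 libraries in homozygous replicate 2 and of 0.21 in heterozygous replicate 3. The other 7 libraries lay between -0.06 and 0.08. Ribosomal protein genes took 7.99% of the counts in homozygous replicate 2 and 5.52% to 6.5% in the other 8. Mitochondrially encoded genes took 6.79% in heterozygous replicate 3 and 4.96% to 5.93% in the other 8. By gene span, homozygous replicate 2 ran from a median deviation of 0.15 under 10 kb to -0.17 at 200 kb or more. The part of this trend in the results was not tested. Calls that a correction for GC content and transcript length removed are named with their values.

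CHD7 itself fell further with the loss of the second copy. Its level was 195, 195 and 189.2 CPM in the wild-type cells, 110.4, 131 and 129 in the heterozygous and 56.1, 42.97 and 55.5 in the homozygous. The groups of libraries did not overlap at either step. Between the mutants this was a log2 fold change of -1.26 ± 0.11 (SE, with adjusted p = 3.53e-05), and between heterozygous and wild type it was -0.65 ± 0.10 (adjusted p = 0.00579). On the log2 scale the change at the second copy minus that at the first was -0.62 ± 0.18. By edgeR this difference was not called over all tested genes (adjusted p = 0.206, unadjusted p = 0.00467), and equal steps were not shown either. Mean levels were 193 ± 3.29, 123 ± 11.2 and 51.5 ± 7.41 CPM (SD, n = 3 each). A count over the whole gene includes reads from outside a deleted stretch, so the reads that remained in the homozygous libraries say nothing of the protein. The other 9 members of the CHD family gave no call, with log2 fold changes from -0.47 (CHD9) to 0.42 (CHD4).

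Few genes were called between the 2 mutants, and most of those differed by less than 4-fold. A gene that was not called was not shown to be unchanged. Of 16837 tested genes, 372 (2.21%) were called, 166 (0.986%) higher and 206 (1.22%) lower in homozygous cells. At an unadjusted p below 0.05 there were 3077. Among the called genes 84 rose and 81 fell by more than 2-fold, and 34 rose and 32 fell by more than 4-fold. The 3 homozygous libraries lay above all 3 heterozygous ones in 165 of the 166 called rises and below them in all 206 called falls. Over all tested genes the same separation was seen in 9.02% upward and 10.5% downward. For scale, the same test called 313 genes (1.86%, 0.820% up and 1.04% down) between heterozygous and wild type and 1293 (7.68%, 3.50% up and 4.18% down) between homozygous and wild type. These comparisons share libraries with the one described here. The number of calls rested on single libraries: it was 242 without heterozygous replicate 1, 141 without heterozygous replicate 2, 211 without homozygous replicate 2, 228 without wild-type replicate 2 and 238 without wild-type replicate 3. It was 849 with DESeq2, 177 in a fit of the 6 mutant libraries alone and 67 against a change of at least 1.5-fold.

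**Figure D1:**
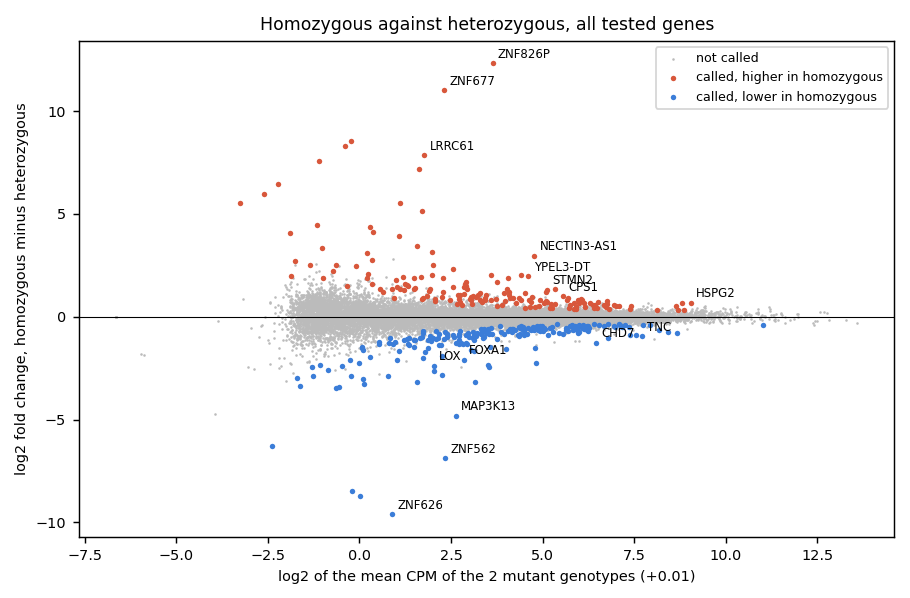
Log2 fold change of homozygous over heterozygous (vertical axis) against the log2 of the mean CPM of the 2 mutant genotypes (horizontal axis) for the 16837 tested genes; red and blue points are the 166 genes called higher and the 206 called lower in homozygous cells, and some named genes are labelled. The called genes lie at all levels, and the large changes of ZNF826P, ZNF677 and ZNF626 lie at low levels.

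Several genes differed between homozygous and heterozygous cells in the same direction as between heterozygous and wild type. A step here is a difference between genotypes, not a change followed within 1 line. NECTIN3-AS1, a long non-coding RNA transcribed from the strand opposite the gene of the adhesion molecule nectin-3 (ENSG00000242242, chr3:110893708-111071553, GRCh38), was almost silent in wild-type cells at 0.134, 0.262 and 0.374 CPM. It reached 6.22, 6.14 and 6.02 CPM in the heterozygous and 45.7, 47.5 and 51.3 in the homozygous libraries. Every library was far from those of the next genotype (log2 change of 2.98 ± 0.14 SE, adjusted p = 1.72e-07). The wild-type level rests on 5, 8 and 9 counts. YPEL3-DT, a divergent transcript beside the gene of the small zinc-binding protein YPEL3 (ENSG00000250616, chr16:30096430-30104116), was at 1.48, 0.951 and 1.41 CPM in wild type, 10.6, 9.46 and 9.66 in heterozygous and 38.2, 43.995 and 34.3 in homozygous cells (log2 change of 1.97 ± 0.14 SE, adjusted p = 8.87e-06). GRPR, the gastrin-releasing peptide receptor, stood at 3.51, 2.03 and 2.28, then 7.72, 8.99 and 8.48, then 38.4, 28.5 and 34.8 CPM (log2 change of 2.01 ± 0.18 SE, adjusted p = 4.23e-05). In all 3 genes the libraries of neighbouring genotypes did not overlap. On the log2 scale NECTIN3-AS1 gained less at the second copy than at the first (step difference -1.66 ± 0.32, adjusted p = 0.0317), a call lost without heterozygous replicate 1, 2 or 3, homozygous replicate 1 or 2 or wild-type replicate 1 or 2 (adjusted p = 0.0515 to 0.143) and with limma-voom (adjusted p = 0.0948).

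The same order was seen in genes with better known functions. STMN2, a microtubule-destabilising protein of growing neurites, was at 8.37, 7.05 and 6.06 CPM in wild type, 19.8, 17.5 and 22.2 in heterozygous and 55.2, 46.5 and 46.5 in homozygous libraries (log2 change of 1.31 ± 0.13 SE, adjusted p = 0.000117). CPS1, the mitochondrial enzyme that starts the urea cycle, was at 14.5, 14.7 and 15.9, then 31.2, 30.9 and 31.5, then 67.8, 59.7 and 61.4 CPM (log2 change of 1.01 ± 0.09 SE, adjusted p = 3.53e-05). S100A6, a calcium-binding protein, was at 0.402, 0.426 and 0.291, then 2.64, 2.16 and 1.44, then 8.36, 10.3 and 4.49 CPM (log2 change of 1.88 ± 0.30 SE, adjusted p = 0.00553). The difference between heterozygous and wild type was called for these genes as well, with log2 fold changes of 1.46, 1.06 and 2.45 (adjusted p = 6.81e-05, 2.41e-05 and 0.00445). For none of STMN2, CPS1, S100A6 and GRPR did the sizes of the steps differ detectably (adjusted p = 0.812, 0.913, 0.693 and 0.668). CPS1 gained 1.06 ± 0.09 at the first copy and 1.01 ± 0.09 at the second on the log2 scale.

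FOXA1, a pioneer transcription factor of endoderm and its derivatives, had the larger of the 2 called falls among definitive endoderm genes. It was at 26.3, 16.9 and 18.8 CPM in wild type, 10.9, 13.3 and 10.7 in heterozygous and 2.26, 2.78 and 2.99 in homozygous libraries. All 3 homozygous libraries were far below every other library (log2 change of -2.10 ± 0.20 SE, adjusted p = 7.73e-05). The smaller difference between heterozygous and wild type (-0.83 ± 0.17, adjusted p = 0.0266) was lost without heterozygous replicate 1, 2 or 3 or wild-type replicate 1 or 3 (adjusted p = 0.0597 to 0.113). The difference between the steps was -1.27 ± 0.31 (adjusted p = 0.116), so a larger second step was not shown. Its paralogue FOXA2 was at 140.5, 134 and 119 CPM in heterozygous and 111, 110.3 and 98.6 in homozygous libraries, without overlap, and missed the threshold (log2 change of -0.30 ± 0.09 SE, adjusted p = 0.13). FOXA2 passed it after the correction for GC content and length (adjusted p = 0.00756).

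**Figure D2:**
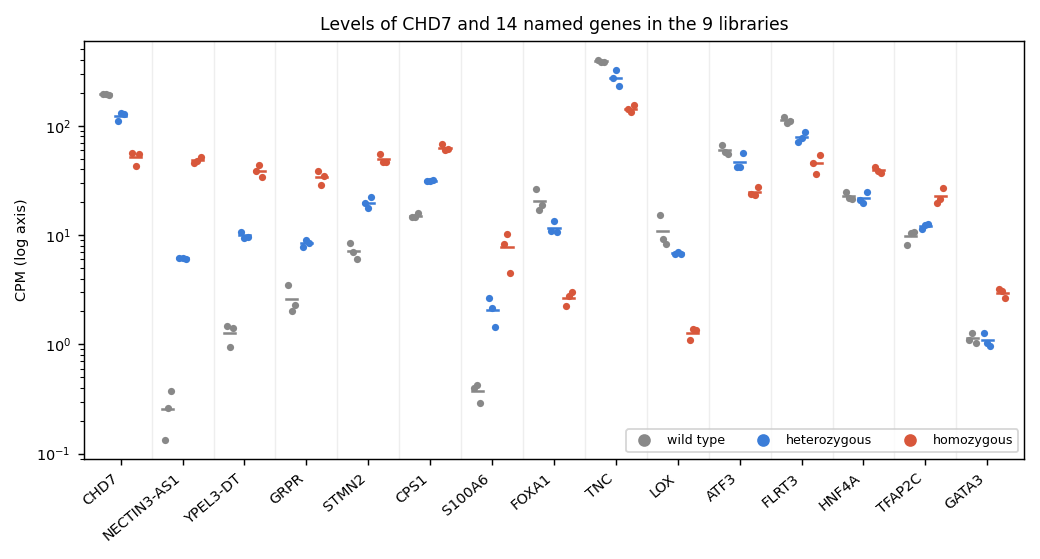
CPM on a log axis of CHD7 and 14 named genes in the 9 libraries; each point is 1 library (grey wild type, blue heterozygous, red homozygous) and each bar the mean of 3. NECTIN3-AS1, YPEL3-DT, GRPR, STMN2, CPS1 and S100A6 climb from wild type through heterozygous to homozygous, CHD7 and FOXA1 descend, and in LOX, ATF3, FLRT3, HNF4A, TFAP2C and GATA3 the homozygous libraries stand clear of both other genotypes.

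A separate group of genes stayed readily detected with 1 copy and was lost or strongly reduced without it. For these the change at the second copy was tested against the change at the first, and 105 of the 16837 genes (0.624%) were called in that test, 40 (0.238%) with a higher and 65 (0.386%) with a lower value at the second copy. MAP3K13, a kinase of the JNK pathway that responds to axon injury (chr3:185282941-185489097), was at 13.2, 11.5 and 12.7 CPM in wild type and 10.9, 11.03 and 13.7 in heterozygous libraries, which overlapped. In the homozygous cells it was at 0.251, 0.331 and 0.648 CPM (log2 change of -4.81 ± 0.24 SE, adjusted p = 4.21e-07). Its step difference was -4.74 ± 0.33 (adjusted p = 1.29e-05). ZNF562, a KRAB zinc finger gene (chr19:9641808-9675086), was at 13.9, 15.5 and 15.5 CPM in wild type, 9.8, 9.9 and 10.3 in heterozygous and 0, 0.166 and 0 in homozygous libraries (log2 change of -6.89 ± 0.36 SE, adjusted p = 4.65e-07). ZNF626 (chr19:20620061-20661596) had 0 counts in all 3 homozygous libraries against 2.995, 3.76 and 4.37 CPM in the heterozygous and 8.13, 9.22 and 7.81 in the wild type. With a floor of 3 counts over the homozygous genotype it was at least 75.7-fold lower there than in heterozygous cells (adjusted p = 9.9e-06). ZNF253 fell from 5.44, 6.18 and 9.49 to 1.42, 1.19 and 0.798 CPM (log2 change of -2.65 ± 0.27 SE, adjusted p = 0.000123).

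Outside the zinc finger family, MOBP, known from oligodendrocyte myelin, was at 38.3, 29.7 and 27.1 CPM in wild type, 46.5, 44.4 and 48.9 in heterozygous and 11.7, 9.997 and 8.08 in homozygous libraries (log2 change of -2.24 ± 0.15 SE, adjusted p = 5.8e-06). TRIM4, a ubiquitin ligase of the RIG-I pathway, went from 6.38, 7.64 and 8.69 to 2.01, 2.45 and 1.4 CPM, with 5.18, 6.23 and 5.48 in wild type (log2 change of -1.93 ± 0.21 SE, adjusted p = 0.00029). For ZNF562, ZNF626, ZNF253, MOBP and TRIM4 the step difference was called too (adjusted p = 1.68e-05, 0.000322, 0.00458, 4.17e-05 and 0.00329), and each stayed called with any 1 library left out. SLC52A3, a riboflavin transporter, was at 18.96, 7.81 and 8.84 CPM in wild type, 20.6, 19.3 and 16.8 in heterozygous and 5.43, 4.6 and 1.4 in homozygous libraries (log2 change of -2.34 ± 0.40 SE, adjusted p = 0.00873). Its step difference was not called (-3.00 ± 0.61, adjusted p = 0.0522).

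In the opposite group it was the heterozygous cells that stood apart. Several genes read in wild-type and homozygous libraries were silent or low in all 3 heterozygous ones. Their homozygous level lay below, near or above that of wild type. ZNF826P, a transcribed zinc finger pseudogene (chr19:20340269-20424969), had 0 counts in the 3 heterozygous libraries, 28.7, 20.6 and 25.03 CPM in the homozygous and 38.6, 36.7 and 33.5 in the wild type. It was at least 642-fold higher in homozygous than in heterozygous cells (adjusted p = 9.91e-08). ZNF677 (chr19:53235381-53254898) had 0 counts in the heterozygous libraries, 11.8, 8.44 and 9.67 CPM in the homozygous and 10.2, 8.53 and 7.97 in the wild type, at least 258-fold higher in homozygous cells (adjusted p = 5.71e-07). ZNF506 showed the same order at a lower level, with 0 counts in the heterozygous, 0.919, 2.25 and 1.89 CPM in the homozygous and 0.805, 0.984 and 0.83 in the wild-type libraries, at least 51.2-fold higher (adjusted p = 0.000227). The floor is 3 counts over the heterozygous genotype and, like the intervals of counts, covers counting error only.

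LRRC61, a leucine-rich repeat gene (chr7:150322639-150338150), had 2 counts over the 3 heterozygous libraries and 434 over the homozygous, a ratio of 285 (exact 95% interval 78.4 to 2359, counting error only). Its level was 6.77, 8.01 and 5.53 CPM in homozygous and 0.831, 0.853 and 0.872 in wild-type libraries, so the homozygous level lay above that of wild type (log2 fold change 2.99, adjusted p = 2.66e-05). PCAT7, a long non-coding RNA, was at 5.18, 4.99 and 4.4 CPM in wild type, 2.05, 1.53 and 2.2 in heterozygous and 11.95, 9.07 and 8.28 in homozygous libraries (log2 change of 2.33 ± 0.20 SE, adjusted p = 3.53e-05). LINC00836 was the reverse, at 1.8, 1.31 and 2.49 CPM in wild type, 13.999, 14.03 and 19.7 in heterozygous and 1.67, 0.894 and 2.89 in homozygous libraries (log2 change of -3.17 ± 0.34 SE, adjusted p = 0.000215). For ZNF826P, ZNF677, ZNF506, LRRC61, PCAT7 and LINC00836 the step difference was called (adjusted p = 4.37e-08, 1.01e-06, 0.000466, 1.68e-05, 0.000132 and 2.85e-05). These 6 calls held with each single library left out in turn. Such a gene differs between the mutants through the heterozygous libraries, and whether the heterozygous lines share 1 clone is not given.

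**Figure D3:**
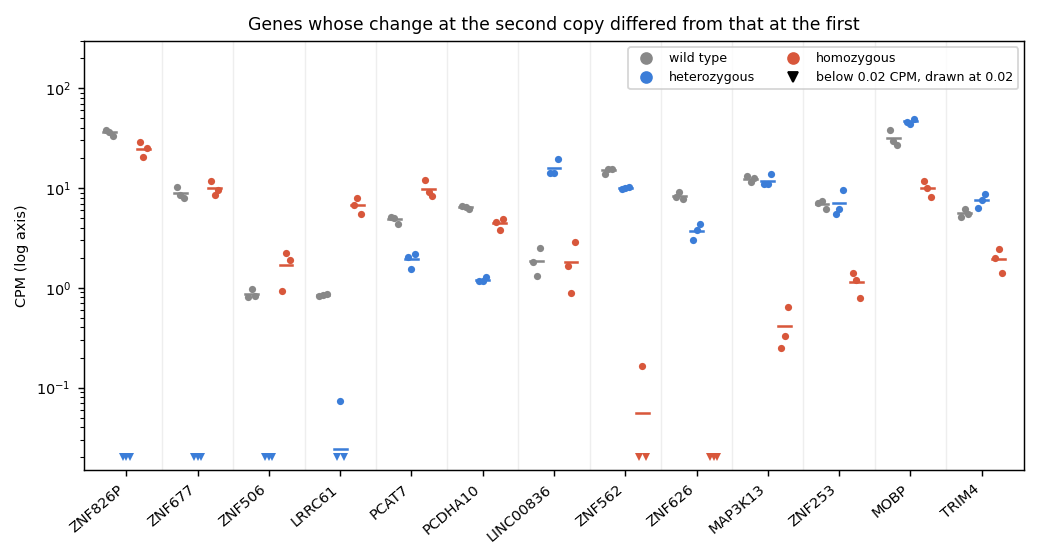
CPM on a log axis of 13 genes whose change at the second copy differed from that at the first; each point is 1 library, each bar the mean of 3, and triangles mark libraries below 0.02 CPM. From ZNF826P to PCDHA10 the heterozygous libraries are lowest, in LINC00836 they are highest, and from ZNF562 to TRIM4 the homozygous libraries are lowest.

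The promoter windows of 5 of these genes are shown because their transcripts went between silent or low and clearly read as the number of CHD7 copies changed. Each window is taken from RefSeq on GRCh38.p14, runs from 250 bases before to 50 after the annotated start and is written 5′ to 3′ on the strand of the gene, with every CG, the palindromic dinucleotide at which DNA is methylated, in capitals. ZNF677 (chr19:53254774-53255073, minus strand) and LRRC61 (chr7:150323105-150323404, plus strand) were silent or nearly so in heterozygous cells. ZNF562 (chr19:9675051-9675350, minus strand) and MAP3K13 (chr3:185282711-185283010, plus strand) were lost or low in homozygous cells. YPEL3-DT (chr16:30096180-30096479, plus strand) climbed at both steps.
ZNF677: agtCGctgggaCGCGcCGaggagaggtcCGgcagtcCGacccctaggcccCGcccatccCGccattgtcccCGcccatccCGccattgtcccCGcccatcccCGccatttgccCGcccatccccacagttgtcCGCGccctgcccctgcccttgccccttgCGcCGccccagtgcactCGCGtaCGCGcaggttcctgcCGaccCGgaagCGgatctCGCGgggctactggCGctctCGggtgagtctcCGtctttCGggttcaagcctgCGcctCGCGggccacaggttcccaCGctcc
LRRC61: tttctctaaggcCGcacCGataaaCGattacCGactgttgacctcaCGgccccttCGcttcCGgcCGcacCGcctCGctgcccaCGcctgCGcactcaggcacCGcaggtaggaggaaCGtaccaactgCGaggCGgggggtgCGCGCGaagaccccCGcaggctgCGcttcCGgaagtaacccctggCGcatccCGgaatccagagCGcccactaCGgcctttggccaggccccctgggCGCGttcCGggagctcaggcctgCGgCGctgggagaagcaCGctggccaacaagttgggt
ZNF562: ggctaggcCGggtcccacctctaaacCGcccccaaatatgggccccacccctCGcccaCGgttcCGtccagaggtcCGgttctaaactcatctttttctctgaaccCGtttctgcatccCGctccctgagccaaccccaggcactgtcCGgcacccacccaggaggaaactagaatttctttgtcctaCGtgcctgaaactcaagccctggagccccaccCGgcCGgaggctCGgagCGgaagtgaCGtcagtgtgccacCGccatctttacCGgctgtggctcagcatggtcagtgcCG
MAP3K13: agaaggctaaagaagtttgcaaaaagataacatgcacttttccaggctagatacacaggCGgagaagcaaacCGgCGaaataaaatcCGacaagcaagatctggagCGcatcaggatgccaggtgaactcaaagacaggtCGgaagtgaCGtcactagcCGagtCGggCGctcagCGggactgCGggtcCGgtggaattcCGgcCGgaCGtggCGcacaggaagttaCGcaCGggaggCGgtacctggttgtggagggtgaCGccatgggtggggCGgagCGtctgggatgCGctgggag
YPEL3-DT: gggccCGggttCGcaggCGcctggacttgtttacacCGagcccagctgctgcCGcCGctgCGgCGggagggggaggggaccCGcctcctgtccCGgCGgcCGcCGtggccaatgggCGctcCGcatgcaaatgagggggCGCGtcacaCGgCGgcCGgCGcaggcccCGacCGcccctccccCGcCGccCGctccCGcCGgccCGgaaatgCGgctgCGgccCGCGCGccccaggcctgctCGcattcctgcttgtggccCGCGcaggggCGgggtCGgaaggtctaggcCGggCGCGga

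The windows of these genes differ in CG number. ZNF677 has 34, LRRC61 32, MAP3K13 24, ZNF562 18 and YPEL3-DT 42 CG, and among 35116 RefSeq windows of 300 bases, whose median is 14, the shares with at least as many are 15.6%, 18.9%, 33.9%, 44.5% and 5.85%. ZNF626 with 8 CG (60.7% of windows have at least as many) and NECTIN3-AS1 with 6 (66.3%) also changed. At least 1 CG is present in 96.0% of all windows. The window of YPEL3-DT overlaps that of YPEL3, on the other strand, by 284 bases. YPEL3 was at 25.7, 20.3 and 19.3 CPM in wild type, 35.3, 30.3 and 29.2 in heterozygous and 49.5, 52.8 and 45.9 in homozygous libraries (log2 change of 0.64 ± 0.12 SE, adjusted p = 0.0161). The YPEL3 call was lost without heterozygous replicate 2 or 3 or homozygous replicate 2 (adjusted p = 0.0513 to 0.086). NECTIN3 went against its antisense partner between the mutants only. It was at 8.42, 8.89 and 8.3 CPM in wild type, and by edgeR neither mutant was called against that. The log2 fold change was 0.34 for heterozygous (adjusted p = 0.343) and -0.40 for homozygous (adjusted p = 0.139). NECTIN3 was at 11.8, 10.5 and 10.05 CPM in heterozygous and 5.6, 5.73 and 7.98 in homozygous libraries (log2 change of -0.74 ± 0.15 SE, adjusted p = 0.0289). That call was lost without heterozygous replicate 1 or 2, homozygous replicate 1 or 2 or wild-type replicate 2 or 3 (adjusted p = 0.0536 to 0.0979), in a fit of the 6 mutant libraries alone (adjusted p = 0.0981) and after the correction for GC content and length (adjusted p = 0.107). YPEL3 and NECTIN3 were picked as neighbours after their values were seen. The strand setting of the counting is not given, so reads of such partners cannot be told apart with certainty.

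Zinc finger genes carried several of the largest changes in both directions. Of 448 genes with a ZNF symbol 430 were tested, and 10 rose and 9 fell, 4.42% of the tested members against 2.21% of all genes. The median log2 fold change of the 430 was -0.06, beside 0.01 over all tested genes. The risers were ZNF677, ZNF506, ZNF680, ZNF469, ZNF772, ZNF69, ZNF737, ZNF841, ZNF426 and ZNF785, and the fallers ZNF626, ZNF562, ZNF883, ZNF253, ZNF107, ZNF273, ZNF30, ZNF614 and ZNF93. ZNF469, a gene linked to brittle cornea, was nearly silent in wild type and heterozygous libraries (at 0.107, 0 and 0.0415 CPM, then 0.13, 0.256 and 0.127) and reached 8.02, 5.59 and 5.38 in the homozygous (log2 change of 5.15 ± 0.40 SE, adjusted p = 1.62e-05). ZNF69 was at 16.4, 17.7 and 16.98 CPM in wild type, 3.26, 3.54 and 3.86 in heterozygous and 10.6, 9.997 and 14.1 in homozygous libraries. ZNF737 was at 16.98, 20.2 and 19.1, then 3.48, 4.2 and 3.9, then 13.5, 9.004 and 10.4 CPM. Both were lowest in the heterozygous cells, and the homozygous libraries lay between those and the wild-type ones (log2 change of 1.70 ± 0.16 SE, adjusted p = 5.96e-05 for ZNF69, log2 change of 1.49 ± 0.17 SE, adjusted p = 0.000306 for ZNF737). ZNF107 and ZNF273, on chromosome 7, went the other way, from 21.3, 25.3 and 24.7 to 8.86, 6.85 and 8.92 CPM and from 15.1, 15.6 and 21.2 to 6.77, 4.8 and 7.08 (log2 fold changes -1.55 and -1.50, adjusted p = 5.13e-05 and 0.000624). ZNF69, ZNF737, ZNF107 and ZNF273 were picked after their values were seen. Many of these genes have close copies nearby, and the counting could split reads among them.

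The main markers of the endoderm programme were not called between the mutants, although several lay lower in homozygous cells. SOX17 was at 667, 627 and 562 CPM in heterozygous and 584, 642 and 663 in homozygous libraries. CXCR4 was at 607, 614 and 537 CPM with 1 copy and 573, 627 and 564 with none. GATA6 was at 674, 663 and 623 CPM with 1 copy and 646, 655 and 742 with none. These libraries overlapped in each gene, and the log2 fold changes were 0.03 ± 0.08, 0.01 ± 0.09 and 0.06 ± 0.08 (adjusted p = 0.896, 0.98 and 0.704). EOMES and GSC, which act early in the specification of endoderm, were not called. EOMES was at 804, 829 and 795 CPM with 1 copy and 755, 715 and 779.9 with none, every homozygous library below every heterozygous one (log2 change of -0.11 ± 0.07 SE, adjusted p = 0.409). GSC was at 226, 209 and 201 CPM with 1 copy and 208, 226 and 205 with none (log2 change of 0.01 ± 0.08 SE, adjusted p = 0.962). GATA4 was at 46.6, 49.7 and 44.1 CPM with 1 copy and 42.2, 46.3 and 61.8 with none (log2 change of 0.10 ± 0.16 SE, adjusted p = 0.77), and both GSC and GATA4 overlapped. These markers are those of the labelled cell type, and they were read in all 6 libraries. The definitive endoderm list counted 1 riser (FRZB) and 2 fallers (FOXA1 and HHEX) among 30 tested genes, with a median of -0.03. That is 10% of its members, against 2.21% of all genes. The homozygous libraries lay below all heterozygous ones in 10 of the 30 and above them in 3, against 10.5% and 9.02% of all genes. DESeq2 called 6 members, 1 higher and 5 lower, and over all 16837 tested genes it called 849, 367 higher and 482 lower. APELA, a peptide ligand of the apelin receptor, was lower still but scattered widely, at 3.68, 2.59 and 1.27 CPM in heterozygous and 0.585, 0.53 and 0 in homozygous libraries (log2 change of -2.78 ± 0.85 SE, adjusted p = 0.116). It was not called, and was picked after its values were seen.

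HHEX, a homeobox regulator of the anterior endoderm and liver, was at 109.6, 110.3 and 132 CPM in heterozygous and 93.5, 88.6 and 78.4 in homozygous libraries (log2 change of -0.43 ± 0.09 SE, adjusted p = 0.0331). The call was lost without heterozygous replicate 2 or 3, homozygous replicate 2 or 3 or wild-type replicate 1, 2 or 3 (adjusted p = 0.0509 to 0.0838) and in a fit of the 6 mutant libraries alone (adjusted p = 0.131). FRZB, a secreted Wnt antagonist, was at 39.2, 43.3 and 45.3 CPM in wild type, 47.99, 50.8 and 48.1 in heterozygous and 68.5, 75.2 and 93.2 in homozygous libraries (log2 change of 0.69 ± 0.11 SE, adjusted p = 0.00553). CER1, which blocks Nodal outside the cell and was the most abundant of the 8 markers, was at 5464, 6124 and 6784 CPM in heterozygous and 4961, 3942 and 4986 in homozygous libraries (log2 change of -0.40 ± 0.11 SE, adjusted p = 0.0762). MIXL1 was at 802, 795 and 702 CPM with 1 copy and 604, 719 and 619 with none (log2 change of -0.24 ± 0.09 SE, adjusted p = 0.168). Neither was called. The homozygous libraries lay below all heterozygous ones for CER1 and overlapped them for MIXL1. CER1 was called without the filter on low counts (adjusted p = 0.0344) and with DESeq2 (0.0204), MIXL1 after the correction for GC content and length (0.00951). The summed level of the 8 endoderm markers ran from 8629 to 9664 CPM in heterozygous and from 6964 to 8100 in homozygous libraries, most of it CER1.

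Genes of the pluripotent state gave 1 rise and 3 falls among 30 tested members (13.3%, against 2.21% of all genes), with a median of -0.23, and their levels also differed between replicates. NANOG was at 12.4, 9.12 and 9.63 CPM in wild type, 16.6, 14.7 and 8.43 in heterozygous and 5.27, 5.96 and 1.45 in homozygous libraries (log2 change of -1.65 ± 0.37 SE, adjusted p = 0.0401), the mutant groups not overlapping. Its call was lost without heterozygous replicate 1 or 2, homozygous replicate 1 or wild-type replicate 1, 2 or 3 (adjusted p = 0.0509 to 0.139), in a fit of the 6 mutant libraries alone (adjusted p = 0.105) and after the correction for GC content and length (adjusted p = 0.0552). POU5F1 was at 95.3, 56.1 and 57.4 CPM in wild type, 193, 168 and 116 in heterozygous and 122, 114 and 33.5 in homozygous libraries (log2 change of -0.83 ± 0.37 SE, adjusted p = 0.264). SOX2 stood at 7.11, 4.07 and 3.36 CPM in wild type, 19.1, 15.9 and 5.59 with 1 copy and 5.93, 6.39 and 0.848 with none (log2 change of -1.64 ± 0.55 SE, adjusted p = 0.146). It was called when the replicate number entered the edgeR fit as a block (log2 change of -1.67, adjusted p = 0.00863). Replicate 3 was the lowest of its genotype for all 3 genes in both mutants. By edgeR homozygous against wild type was not called for POU5F1, SOX2 or NANOG. The log2 fold changes were 0.36, -0.16 and -1.30 (adjusted p = 0.588, 0.892 and 0.0547). Heterozygous against wild type was not called either, at 1.19, 1.47 and 0.35 (adjusted p = 0.158, 0.226 and 0.729). Over the 30 members the mean log2 deviation from the 9 libraries was 0.05, -0.17 and -0.20 in the wild-type, 0.34, 0.34 and -0.10 in the heterozygous and 0.10, 0.07 and -0.44 in the homozygous libraries. In bulk RNA fewer cells of a type and less RNA per cell cannot be told apart.

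The other pluripotency calls went in both directions. POLR3G, a subunit of RNA polymerase III, was at 5.98, 5.44 and 4.9 CPM in wild type, 10.7, 11.6 and 9.2 in heterozygous and 6.94, 5.69 and 3.49 in homozygous libraries (log2 change of -0.99 ± 0.21 SE, adjusted p = 0.0294). TERF1, a telomere-binding protein, went from 71.3, 73.8 and 73.2 to 58.3, 53.4 and 52.7 CPM, close to the 61.7, 56.8 and 54.8 of wild type (log2 change of -0.41 ± 0.08 SE, adjusted p = 0.0209). The POLR3G call was lost without heterozygous replicate 1 or 2, homozygous replicate 2 or wild-type replicate 2 (adjusted p = 0.0524 to 0.129), in a fit of the 6 mutant libraries alone (adjusted p = 0.0825) and after the correction for GC content and length (adjusted p = 0.167), and the TERF1 call without heterozygous replicate 2, homozygous replicate 2 or 3 or wild-type replicate 2 (adjusted p = 0.0506 to 0.0926) and in a fit of the 6 mutant libraries alone (adjusted p = 0.0824). IDO1, a tryptophan-degrading enzyme found in primed stem cells, rose from 0.228, 0.292 and 0.17 to 2.93, 2.55 and 0.748 CPM (log2 change of 3.11 ± 0.53 SE, adjusted p = 0.00829). The summed level of 6 pluripotency markers was 2205 to 2538 CPM in heterozygous and 2283 to 2385 in homozygous libraries, most of it LIN28A, which endoderm also expresses.

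Among markers of other lineages, 2 transcription factors of trophoblast and amnion rose together. GATA3 was at 1.1, 1.28 and 1.04 CPM in wild type, 1.27, 1.02 and 0.975 in heterozygous and 3.18, 3.05 and 2.64 in homozygous libraries (log2 change of 1.42 ± 0.23 SE, adjusted p = 0.00553). TFAP2C was at 8.07, 10.5 and 10.6, then 11.4, 12.3 and 12.7, then 19.6, 21.4 and 26.9 CPM (log2 change of 0.90 ± 0.15 SE, adjusted p = 0.00597). In both genes all homozygous libraries were above all others. They are the 2 called genes of 6 tested members of the trophoblast and amnion list (33.3%, against 2.21% of all genes), whose median was 0.51. Defining markers of those cells were close to 0: TFAP2A stayed at or below 0.13 CPM and KRT7 at or below 0.066 CPM in all 6 mutant libraries. The summed level of the trophoblast and amnion markers was 12.9 to 13.7 CPM in heterozygous and 22.9 to 29.5 CPM in homozygous libraries, nearly all of it GATA3 and TFAP2C.

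HNF4A, a nuclear receptor that directs liver and gut epithelium, rose at the second copy. It was at 24.9, 21.9 and 21.3 CPM in wild type, 20.9, 19.8 and 24.9 in heterozygous and 41.7, 38.2 and 36.9 in homozygous libraries (log2 change of 0.83 ± 0.11 SE, adjusted p = 0.00144). With CPS1 it made up the 2 called genes of 14 tested members of the visceral endoderm and liver list (14.3%, against 2.21% of all genes), whose median was 0.30. AFP and ALB, which define those cells, stayed at or below 0.26 CPM in the 6 libraries. APOA1 was at 6.41, 5.3 and 4.15 CPM in heterozygous and 6.52, 7.55 and 6.08 in homozygous libraries and was not called (log2 change of 0.35 ± 0.17 SE, adjusted p = 0.31). The step difference of HNF4A was 0.89 ± 0.19 (adjusted p = 0.0718). MNX1, a homeobox gene of early pancreas and motor neurons, went from 5.5, 3.98 and 3.65 to 6.77, 10.4 and 9.57 CPM (log2 change of 1.04 ± 0.23 SE, adjusted p = 0.0373), the only call among 6 tested foregut and pancreas genes (16.7%). It was lost without heterozygous replicate 2 or 3, homozygous replicate 2 or 3 or wild-type replicate 3 (adjusted p = 0.0586 to 0.155), in a fit of the 6 mutant libraries alone (adjusted p = 0.0556) and after the correction for GC content and length (adjusted p = 0.0742). Of 15 tested mesoderm genes ALCAM, an adhesion molecule of the immunoglobulin family, fell from 5.89, 7.23 and 6.78 to 3.43, 1.95 and 2.69 CPM (log2 change of -1.35 ± 0.20 SE, adjusted p = 0.00289). Of 19 tested neuroectoderm genes only STMN2 was called. The shares called were 6.67% for the mesoderm list and 5.26% for the neuroectoderm list, against 2.21% of all genes. The summed level of the mesoderm markers was 36.6 to 46.5 CPM in heterozygous and 23.0 to 40.6 in homozygous libraries, mostly KDR. For the neuroectoderm markers it was 18.99 to 19.9 and 7.83 to 12.8, mostly SIX3. SIX3, a forebrain homeobox gene, was at 19.1, 18.8 and 18.7 CPM in heterozygous and 11.2, 12.2 and 7.53 in homozygous libraries (log2 change of -0.87 ± 0.22 SE, adjusted p = 0.0653). PAX6 stayed at or below 0.488 CPM and SOX1 had 0 counts in the 6 libraries. The part of these other cell types in the results was not tested.

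**Figure D4:**
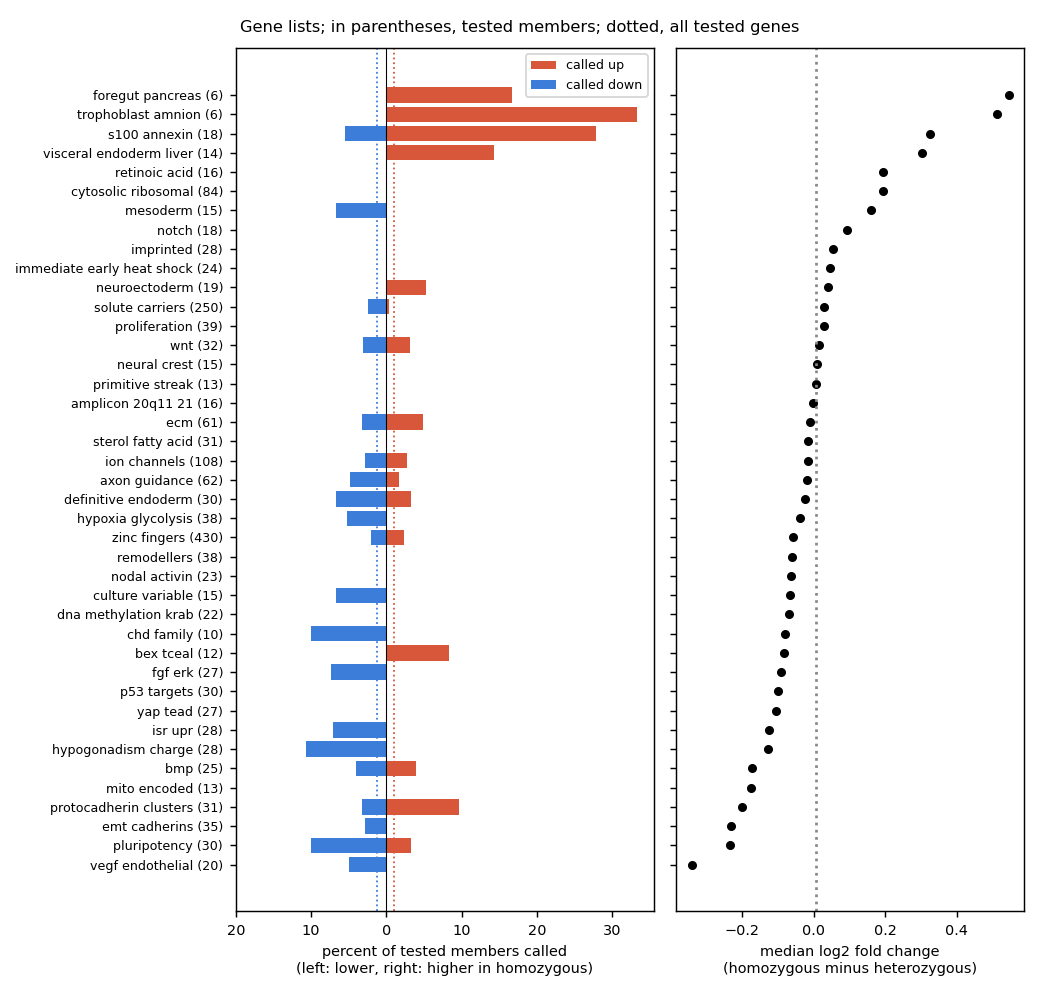
Gene lists in order of their median log2 fold change, homozygous minus heterozygous; the left panel gives the percent of tested members called lower (blue, to the left) or higher (red, to the right) and the right panel the median, with the number of tested members in parentheses and dotted lines for all 16837 tested genes. Lists of 6 tested members reach high percentages with 1 or 2 called genes, as the foregut and the trophoblast lists do.

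Signalling pathways of the endoderm gave 0 to 2 calls each by edgeR, too few to compare their shares. By edgeR none of 23 tested genes of the Nodal and activin pathway was called (6 at an unadjusted p below 0.05, 3 by DESeq2, 0 by limma-voom), with a median of -0.06. None of 18 Notch (7, 2 and 0), 16 retinoic acid (5, 2 and 0) or 27 YAP and TEAD genes (6, 2 and 0) was called either. Of all 16837 tested genes 3077 had an unadjusted p below 0.05, 849 were called by DESeq2 and 353 by limma-voom. LEFTY2, a Nodal antagonist and target, was at 6097, 5653 and 4775 CPM in heterozygous and 7085, 7446 and 5162 in homozygous libraries (log2 change of 0.25 ± 0.15 SE, adjusted p = 0.395). In the Wnt list LGR5, a receptor for R-spondins that amplifies Wnt signals, fell and FRZB rose, of 32 tested (6.25%, against 2.21% of all genes). LGR5 was at 20.3, 20.4 and 21.6 CPM in wild type, 14.7, 16.7 and 24.03 in heterozygous and 5.77, 7.58 and 12.02 in homozygous libraries (log2 change of -1.11 ± 0.23 SE, adjusted p = 0.0278). The call was lost without heterozygous replicate 2 or 3, homozygous replicate 1 or 2 or wild-type replicate 2 (adjusted p = 0.0504 to 0.091) and in a fit of the 6 mutant libraries alone (adjusted p = 0.0859). In the BMP list SMAD6, an inhibitor of the pathway, rose from 85.5, 79.2 and 80.2 to 114, 111 and 145 CPM (log2 change of 0.59 ± 0.11 SE, adjusted p = 0.0127). The receptor BMPR1A fell from 69.8, 66.7 and 69.2 to 53.1, 41.8 and 55.6 CPM (log2 change of -0.46 ± 0.10 SE, adjusted p = 0.0394). These were the 2 calls of 25 tested (8%, against 2.21% of all genes). SMAD6 was lost without heterozygous replicate 2 (adjusted p = 0.0765) and BMPR1A without heterozygous replicate 1, 2 or 3, homozygous replicate 1 or 2 or wild-type replicate 1, 2 or 3 (adjusted p = 0.0616 to 0.118), in a fit of the 6 mutant libraries alone (adjusted p = 0.124) and after the correction for GC content and length (adjusted p = 0.13).

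Called members of the FGF and ERK list and of the axon guidance list were mostly lower. FLRT3, a transmembrane protein that binds FGF receptors and guides axons, was at 119, 106 and 110.5 CPM in wild type, 70.6, 77.1 and 88.1 in heterozygous and 45.7, 36.5 and 53.4 in homozygous libraries (log2 change of -0.80 ± 0.13 SE, adjusted p = 0.00592). With FGF13, an intracellular member of the FGF family, it was 1 of 2 falls among 27 FGF and ERK genes (7.41%, against 2.21% of all genes). FGF13 went from 91.5, 87.5 and 82.6 to 67.3, 53.8 and 63.02 CPM (log2 change of -0.51 ± 0.10 SE, adjusted p = 0.0166). That call was lost without heterozygous replicate 1 or 2 (adjusted p = 0.0549 to 0.0748), in a fit of the 6 mutant libraries alone (adjusted p = 0.0534) and after the correction for GC content and length (adjusted p = 0.258). UNC5C, a netrin receptor, fell from 11.6, 15.2 and 15.05 to 4.85, 7.48 and 7.38 CPM (log2 change of -1.06 ± 0.17 SE, adjusted p = 0.00576). The secreted semaphorins SEMA3A and SEMA3D, repellents of growing axons, went from 55.7, 61.5 and 64.9 to 44.97, 35.3 and 36.996 CPM and from 4.59, 4.75 and 6.49 to 2.17, 1.56 and 3.39 (log2 fold changes -0.64 and -1.17, adjusted p = 0.0083 and 0.0319). EFNA5, an ephrin ligand, rose from 72.7, 70.9 and 62.6 to 93.02, 106 and 109 CPM (log2 change of 0.58 ± 0.10 SE, adjusted p = 0.00673). The axon guidance list thus gave 1 rise and 3 falls among 62 tested (6.45%, against 2.21% of all genes). The SEMA3A call was lost after the correction for GC content and length (adjusted p = 0.0852), and that of SEMA3D without heterozygous replicate 2 or 3, homozygous replicate 1 or 2 or wild-type replicate 2 or 3 (adjusted p = 0.0571 to 0.0997) and in a fit of the 6 mutant libraries alone (adjusted p = 0.105).

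Genes whose variants cause hypogonadism with loss of smell, a condition that overlaps with CHARGE syndrome, gave 0 rises and 3 falls among 28 tested (10.7%, against 2.21% of all genes and 1.22% for falls). These were FLRT3, SEMA3A and ANOS1. ANOS1, an extracellular matrix protein that guides olfactory axons, was at 73.1, 81.1 and 76.3 CPM in wild type, 65.3, 71.8 and 53.7 in heterozygous and 43.96, 29.99 and 44.4 in homozygous libraries (log2 change of -0.70 ± 0.15 SE, adjusted p = 0.0289). The ANOS1 call was lost without heterozygous replicate 1 or 2, homozygous replicate 2 or wild-type replicate 2 or 3 (adjusted p = 0.0502 to 0.134), in a fit of the 6 mutant libraries alone (adjusted p = 0.0761) and after the correction for GC content and length (adjusted p = 0.0632). The list's median was -0.13. Endothelial signalling gave 1 fall of 20 tested (5%, against 2.21% of all genes). ANGPT1, the ligand of the TIE2 receptor, was at 6.95, 6.17 and 5.44 CPM in wild type, 4.53, 5.04 and 6.06 in heterozygous and 1.92, 1.32 and 1.7 in homozygous libraries (log2 change of -1.70 ± 0.21 SE, adjusted p = 0.000636), with no overlap between the mutants.

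Matrix and adhesion genes were called in both directions. LOX, the enzyme that cross-links collagen and elastin, was at 15.3, 9.18 and 8.35 CPM in wild type, 6.67, 7.05 and 6.74 in heterozygous and 1.09, 1.39 and 1.35 in homozygous libraries (log2 change of -2.38 ± 0.26 SE, adjusted p = 0.00022). TNC, the matrix glycoprotein tenascin C, was at 401, 384 and 386, then 273, 321 and 232, then 142, 134 and 154 CPM (log2 change of -0.94 ± 0.11 SE, adjusted p = 0.000344). In both genes the homozygous libraries were far below all others. HSPG2, the basement membrane proteoglycan perlecan, went from 369, 455 and 389 to 665, 518 and 767 CPM (log2 change of 0.68 ± 0.13 SE, adjusted p = 0.0161). COL13A1, a transmembrane collagen, went from 52.5, 53.3 and 44.8 to 67.4, 66.4 and 77.5 CPM (log2 change of 0.49 ± 0.11 SE, adjusted p = 0.0373). LOXL1, a relative of LOX, was at 22.9, 21.5 and 18.6 CPM in heterozygous and 26.3, 30.3 and 31.5 in homozygous libraries (log2 change of 0.49 ± 0.11 SE, adjusted p = 0.0436). Whether the LOXL1 call held under the alternatives was not examined. The matrix list gave 3 rises and 2 falls among 61 tested (8.2%, against 2.21% of all genes). The HSPG2 call was lost without heterozygous replicate 1 or 3 (adjusted p = 0.0551 to 0.0566) and that of COL13A1 without heterozygous replicate 1, 2 or 3, homozygous replicate 1, 2 or 3 or wild-type replicate 2 or 3 (adjusted p = 0.0508 to 0.102), in a fit of the 6 mutant libraries alone (adjusted p = 0.0626) and after the correction for GC content and length (adjusted p = 0.0958). Of 35 cadherin and epithelial state genes (2.86% called, against 2.21% of all genes) OCLN, a tight junction protein, was the only call, at 10.2, 11.7 and 13.01 CPM in heterozygous and 8.78, 5.89 and 5.83 in homozygous libraries (log2 change of -0.79 ± 0.18 SE, adjusted p = 0.0375). It was lost without heterozygous replicate 2 or 3, homozygous replicate 2 or 3 or wild-type replicate 2 or 3 (adjusted p = 0.0593 to 0.13), in a fit of the 6 mutant libraries alone (adjusted p = 0.102) and after the correction for GC content and length (adjusted p = 0.0852).

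Clustered protocadherins, neuronal adhesion proteins of which each cell reads a few out of many promoters, changed by single members. PCDHA10 was at 6.68, 6.49 and 6.23 CPM in wild type, 1.17, 1.17 and 1.27 in heterozygous and 4.6, 3.77 and 4.94 in homozygous libraries (log2 change of 1.87 ± 0.18 SE, adjusted p = 0.000103). PCDHGB4 was at 3.11, 3.12 and 3.36, then 1.24, 0.877 and 1.82, then 6.1, 3.38 and 5.63 CPM (log2 change of 1.92 ± 0.29 SE, adjusted p = 0.0033). Both were lowest in heterozygous cells. PCDHGB7 was highest there, at 5.53, 5.35 and 5.77 CPM in wild type, 9.9, 13.7 and 8.01 in heterozygous and 4.51, 3.01 and 5.53 in homozygous libraries (log2 change of -1.30 ± 0.24 SE, adjusted p = 0.0129). PCDHA6 was at 0.0651, 0.11 and 0.127 CPM in heterozygous and 0.585, 0.397 and 0.299 in homozygous libraries, both far below the 3.33, 2.98 and 2.91 of wild type (log2 change of 2.0 ± 0.45 SE, adjusted p = 0.0403). Of 31 tested members 3 rose and 1 fell (12.9%, against 2.21% of all genes), with a median of -0.20. The PCDHGB7 call was lost without heterozygous replicate 2 (adjusted p = 0.0694) and that of PCDHA6 without heterozygous replicate 1, 2 or 3, homozygous replicate 1 or 2 or wild-type replicate 1, 2 or 3 (adjusted p = 0.0633 to 0.125). The PCDHA6 call was also lost with limma-voom (adjusted p = 0.0682) and with the replicate number as a block in the edgeR fit (adjusted p = 0.0546). Genes of a cluster overlap and share their last exons, so their counts are uncertain.

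The S100 and annexin families, calcium-binding proteins of the membrane and cytoskeleton, gave 5 rises and 1 fall among 18 tested (33.3%, against 2.21% of all genes), with a median of 0.33. Beside S100A6, S100A10 was at 50.1, 72.7 and 78.5 CPM in wild type, 50.1, 42.9 and 52.2 in heterozygous and 63.9, 86.4 and 107 in homozygous libraries (log2 change of 0.83 ± 0.18 SE, adjusted p = 0.0373). By edgeR S100A10 was not called between homozygous and wild type (log2 fold change 0.36, adjusted p = 0.262). S100A16 was at 105, 93.2 and 115 CPM with 1 copy and 144, 160.1 and 153 with none (log2 change of 0.55 ± 0.09 SE, adjusted p = 0.00599). ANXA2, the partner of S100A10, and ANXA6 rose by 0.35 and 0.32 on the log2 scale (adjusted p = 0.0459 and 0.0468). Whether the calls of ANXA2 and ANXA6 held under the alternatives was not examined. ANXA1 was read above 1 CPM in heterozygous cells only, at 1.99, 2.52 and 1.19 CPM against 0.251, 0.397 and 0 in the homozygous and 0.429, 0.164 and 0.291 in the wild type (log2 change of -3.01 ± 0.59 SE, adjusted p = 0.0202). The S100A10 call was lost without heterozygous replicate 1, 2 or 3, homozygous replicate 2 or 3 or wild-type replicate 2 (adjusted p = 0.0598 to 0.165) and after the correction for GC content and length (adjusted p = 0.144). That of S100A16 was lost after the correction for GC content and length (adjusted p = 0.166), and that of ANXA1 without heterozygous replicate 1 or 2 or homozygous replicate 1 (adjusted p = 0.0509 to 0.0975).

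The called members of the stress and the hypoxia and glycolysis lists were lower in homozygous cells. ATF3, a transcription factor of the stress response, was at 66.4, 57.6 and 55.3 CPM in wild type, 42.2, 41.5 and 56.03 in heterozygous and 23.6, 23.4 and 27.5 in homozygous libraries (log2 change of -0.91 ± 0.13 SE, adjusted p = 0.00252). PSAT1, an enzyme of serine synthesis, was the other fall among 28 integrated stress and unfolded protein response genes (7.14% called, against 2.21% of all genes), from 249, 237 and 246 to 189.5, 172 and 183.7 CPM (log2 change of -0.42 ± 0.09 SE, adjusted p = 0.0308). It was lost without heterozygous replicate 1, 2 or 3, homozygous replicate 1, 2 or 3 or wild-type replicate 2 or 3 (adjusted p = 0.0505 to 0.0901) and in a fit of the 6 mutant libraries alone (adjusted p = 0.0522). Of 38 hypoxia and glycolysis genes 2 fell (5.26%). ADM, the vasoactive peptide adrenomedullin, was at 55.7, 52.5 and 50.99 CPM in wild type, 36.9, 34.8 and 27.8 in heterozygous and 19.1, 21.2 and 24.2 in homozygous libraries (log2 change of -0.62 ± 0.12 SE, adjusted p = 0.0191). PDK1, a kinase that limits entry of pyruvate into the mitochondrial cycle, was at 67.3, 60.2 and 55.5, then 42.5, 42.9 and 36.03, then 29.002, 24.6 and 25.98 CPM (log2 change of -0.62 ± 0.11 SE, adjusted p = 0.0106). Both genes stepped down at each copy without overlap. The ADM call was lost without heterozygous replicate 1 or 2 or homozygous replicate 1 or 2 (adjusted p = 0.0579 to 0.0901) and in a fit of the 6 mutant libraries alone (adjusted p = 0.0741), and that of PDK1 without heterozygous replicate 2 (adjusted p = 0.0655) and after the correction for GC content and length (adjusted p = 0.158).

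Transporters and channels gave 1 rise and 6 falls among 250 tested solute carriers and 3 rises and 3 falls among 108 ion channel and receptor genes. The shares called were 2.8% and 5.56%, against 2.21% of all genes, so that of the solute carriers was close to it. The amino acid transporter family member SLC7A14 fell from 12.4, 12.8 and 9.16 to 5.85, 4.83 and 6.08 CPM (log2 change of -1.05 ± 0.16 SE, adjusted p = 0.00464). CACNA2D1, an auxiliary subunit of voltage-gated calcium channels, fell from 13.02, 14.1 and 14.8 to 8.02, 6.95 and 8.97 CPM (log2 change of -0.81 ± 0.13 SE, adjusted p = 0.00473). GABRB2, a GABA receptor subunit, went from 12.6, 16.2 and 12.5 to 10.03, 6.62 and 4.84 CPM (log2 change of -0.98 ± 0.21 SE, adjusted p = 0.0308) and was lost without heterozygous replicate 2, homozygous replicate 2 or 3 or wild-type replicate 2 or 3 (adjusted p = 0.0525 to 0.139), in a fit of the 6 mutant libraries alone (adjusted p = 0.0988) and after the correction for GC content and length (adjusted p = 0.128). Among the risers were KCNK5 and KCNF1, potassium channel genes that averaged 19.4 and 112 CPM in heterozygous cells and 31.9 and 160.3 CPM in homozygous ones (log2 fold changes 0.71 and 0.52, adjusted p = 0.0096 and 0.0289). Whether the calls of KCNK5 and KCNF1 held under the alternatives was not examined. Other large rises came from PRRT1B, at 1.14, 1.39 and 1.1 CPM in heterozygous and 6.52, 6.82 and 7.23 in homozygous libraries (log2 change of 2.50 ± 0.20 SE, adjusted p = 2.03e-05), CSRP1 and PCSK2. CSRP1, a LIM-domain protein of the actin cytoskeleton, was at 0.391, 0.731 and 0.339 CPM with 1 copy and 4.6, 4.54 and 7.08 with none (log2 change of 3.46 ± 0.40 SE, adjusted p = 0.000355). PCSK2, a protease that processes prohormones, was at 1.4, 1.13 and 2.16 CPM with 1 copy and 4.76, 5.63 and 8.58 with none (log2 change of 2.03 ± 0.32 SE, adjusted p = 0.00534). TCEAL4, an X-linked gene of the BEX and TCEAL family, went from 68.01, 60.2 and 77.6 to 125, 124 and 89.1 CPM (log2 change of 0.72 ± 0.14 SE, adjusted p = 0.0164), a call lost without heterozygous replicate 1 or 2 or homozygous replicate 1 or 2 (adjusted p = 0.0502 to 0.0944) and in a fit of the 6 mutant libraries alone (adjusted p = 0.0522).

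Many gene groups had no called member by edgeR. These were the primitive streak (13 tested), neural crest (15), p53 target (30), immediate early and heat shock (24), proliferation (39), chromatin remodeller other than the CHD family (38), DNA methylation and KRAB co-repressor (22), imprinted (28), sterol and fatty acid (31) and chromosome 20q11.21 (16) lists. The 13 mitochondrially encoded and 84 cytosolic ribosomal protein genes were not called either. With the Nodal, Notch, retinoic acid and YAP lists these make 16 lists of 437 tested memberships, of which 97 had an unadjusted p below 0.05, 21 were called by DESeq2 and 0 by limma-voom. Over all 16837 tested genes the same criteria gave 3077, 849 and 353. The ribosomal genes had a median of 0.19, and homozygous replicate 2 was the library in which they took 7.99% of counts; the part of that library was not tested.

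By kind of gene, antisense transcripts gave 11 rises and 1 fall among 843 tested, beside 129 rises and 180 falls among 13562 protein-coding genes and 9 and 13 among 762 lincRNAs. The shares called were 1.42%, 2.28% and 2.89%, against 2.21% of all genes. The median log2 fold changes of these kinds were 0.15, -0.01 and 0.12, beside 0.01 over all tested genes. By level, 1.07% of genes under 1 CPM were called, 3.23% between 1 and 10 CPM, 2.17% between 10 and 100 and 1.77% above 100. The median size of a called change declined along these bins from 2.83 to 0.48 on the log2 scale. By chromosome the share called ran from 1.32% on chromosome 17 to 3.83% on chromosome 7, where 11 genes rose and 19 fell of 784 tested. Chromosome medians ran from -0.12 on chromosome 4 to 0.10 on chromosome 19.

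Called rises and falls also differed in GC content and gene span, as the libraries did. The median GC of the longest transcript was 52.6% in 161 called rises, 41.7% in 200 called falls and 48.5% over 16527 tested genes, and the median span 23.2, 74.7 and 28.2 kb. Of 2495 genes under 40% GC 9 rose and 70 fell, and of 4788 genes with at least 55% GC 68 rose and 12 fell. The median log2 fold change climbed from -0.22 to 0.12 between these bins. Of 1294 genes spanning at least 200 kb 15 rose and 58 fell. After the correction for GC content and length, an alternative chosen after seeing the data, 359 genes were called, 181 up and 178 down, of which 262 were among the 372. Of the 71 called named genes 14 lost their call with it, among them S100A16, PDK1, FGF13, SEMA3A and POLR3G, while CHD7, FOXA1, LOX, TNC, HNF4A, GATA3 and the zinc finger genes whose levels are given here kept theirs.

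**Figure D5:**
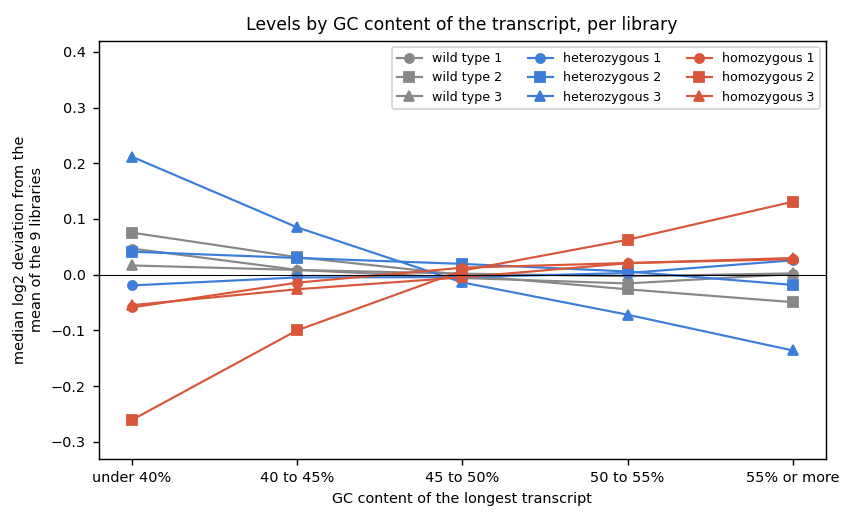
Median log2 deviation of tested genes from the mean of the 9 libraries, by the GC content of the longest transcript, 1 line per library. Homozygous replicate 2 runs from -0.26 under 40% GC to 0.13 at 55% or more and heterozygous replicate 3 from 0.21 to -0.14, while the other 7 libraries stay between -0.06 and 0.08.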

How the data were processed

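RNA sequencing of total RNA from 9 libraries, 3 each of wild-type, heterozygous and homozygous definitive endoderm, was deposited as 1 table of read counts per gene. The authors made these counts with FastQC, Trimmomatic, HISAT2, SAMtools and HTSeq on hg38, per the submitters' processing notes; tool versions, annotation release and strand setting are not named there. Groups came from the labels.

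The table holds 26240 genes, of which edgeR 4.0.16 in R 4.3.3 tested 16837 after filterByExpr by genotype. TMM scaling and 1 quasi-likelihood fit of all 9 libraries gave the contrasts, with Benjamini-Hochberg adjustment over all tested genes. SE is the log2 fold change divided by the square root of F. The step difference is the change at the second copy minus that at the first. The script was tested on simulated counts.

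Members and lists were chosen with earlier results of these data known. Named genes were CHD7, the 12 largest called rises and falls without overlap at 5 CPM or more, 14 set endoderm and pluripotency genes, up to 4 called members of each list and genes at 0 in 1 mutant with at least 5 CPM in the other. Genes outside this rule are marked as picked after their values were seen, apart from members that are only listed, members set beside a list's count, and markers. Coordinates are GRCh38 (GENCODE 29, 25209 genes matched). Alternatives were RLE and upper quartile scaling, DESeq2 1.42.0, limma-voom with limma 3.58.1, no filter, at least 1 CPM in at least 3 libraries, the 6 mutant libraries alone, a replicate block, a test against a 1.5-fold change, each library left out and, chosen after seeing the data, removal of each library's GC and length trend. No row was analysed here for the markers CDX2, FOXF1 and TTR. Of the genes this rule named, 1 is not reported here.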

Additional observations from a re-analysis of the deposited data

How the results depend on the processing

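Where edgeR called 372 genes (166 up, 206 down), DESeq2 called 849 (367 and 482), a fit of the 6 mutant libraries alone 177 (103 and 74) and a test against a 1.5-fold change 67 (39 and 28). Leaving out 1 library at a time gave 141 to 377 calls, 74 to 151 up and 67 to 226 down, the lowest without heterozygous replicate 2 and the highest without homozygous replicate 3. The total moved by over 1.5 times without heterozygous replicate 1 (242) or 2 (141), homozygous replicate 2 (211) or wild-type replicate 2 (228) or 3 (238). RLE and upper quartile scaling, no filter, the filter of 1 CPM, limma-voom and the GC and length correction gave 353 to 500. With the replicate block 461 genes were called; among named genes SOX2 gained a call (adjusted p = 0.00863) and PCDHA6 lost its call (0.0546). The numbers were not taken to pair the samples: same-numbered mutants correlated in their deviations at -0.17, 0.06 and 0.34, and not every sample correlated best with its own number. Of 82 named genes 71 were called, and no named call reversed under any of the 19 alternatives. Of the 71, 31 kept their call under all 19, 12 lost it only against 1.5-fold, 26 lost it without at least 1 library and 14 with the GC and length correction, 2 of these without being lost to any left-out library. The causes were not tested. Depth limited low genes most in homozygous replicate 1, with 11854173 counts.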

Other observations

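The genes described here were chosen after their values were seen, and their coordinates are GRCh38. OLIG2, a transcription factor of motor neuron and oligodendrocyte precursors, had 0 counts in all 3 homozygous libraries. It was at 1.63, 1.75 and 1.78 CPM in heterozygous and 1.96, 1.61 and 2.08 in wild-type cells (adjusted p = 6.06e-05 between the mutants). LINC00458, a long non-coding RNA of pluripotent cells, stepped down at each copy, from 398, 351 and 369 CPM through 243, 243 and 233 to 135, 132 and 128 (log2 change of -0.86 ± 0.07 SE, adjusted p = 3.61e-05). BCAT1, the cytosolic enzyme of branched-chain amino acid breakdown, was level in wild-type and heterozygous cells and fell from 146, 156 and 141 to 85.8, 68.7 and 64.4 CPM (log2 change of -1.02 ± 0.12 SE, adjusted p = 0.000322). ASPG, an asparaginase, was at or below 0.295 CPM in every wild-type and heterozygous library and reached 5.01, 4.6 and 3.09 CPM in the homozygous (log2 change of 5.55 ± 0.45 SE, adjusted p = 2.35e-05). SYT11, a synaptotagmin of vesicle traffic, went from 0.391, 0.219 and 0.127 to 5.27, 4.17 and 2.44 CPM (log2 change of 3.92 ± 0.41 SE, adjusted p = 0.000162). IGFBP4, which binds insulin-like growth factors, went from 52.5, 43.8 and 35.99 to 70.04, 81.3 and 61.98 CPM (log2 change of 0.69 ± 0.14 SE, adjusted p = 0.0221), lost without heterozygous replicate 2 or 3 or homozygous replicate 1 or 2 (adjusted p = 0.0519 to 0.0963) and in a fit of the 6 mutant libraries alone (adjusted p = 0.0587).

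Several of the genes that were lowest in heterozygous cells lie beside each other. On chromosome 21, LINC02575 (chr21:44485577-44490288), TSPEAR-AS1 (chr21:44506807-44516575) and TSPEAR-AS2 (chr21:44517216-44525952) are neighbouring non-coding genes. LINC02575 was at 88.2, 109 and 114 CPM in wild-type, 21.9, 22.5 and 23.99 in heterozygous and 50.6, 51.4 and 74.1 in homozygous cells (log2 change of 1.37 ± 0.15 SE, adjusted p = 0.000221). TSPEAR-AS2 was at 26.7, 32.4 and 30.7, then 7.75, 7.05 and 6.53, then 21.1, 26.3 and 30.2 CPM (log2 change of 1.87 ± 0.14 SE, adjusted p = 1.62e-05), and TSPEAR-AS1 followed the same order (log2 change of 1.69 ± 0.16 SE, adjusted p = 9.25e-05). On chromosome 7, ZBED10P (chr7:150329789-150332721) overlaps LRRC61 and, like it, was near 0 in heterozygous cells and at 7.19, 5.66 and 5.53 CPM in homozygous ones, above the 0.429, 0.164 and 0.498 of wild type (log2 change of 7.20 ± 0.49 SE, adjusted p = 5.8e-06). Overlapping genes can share reads, so these are not independent. On chromosome 19, ZNF426 (chr19:9523224-9538645) and ZNF562 lie close together and went opposite ways: ZNF426 was at 38.4, 40.8 and 38.2 CPM in wild-type, 16.99, 20.1 and 16.1 in heterozygous and 38.03, 30.9 and 35.3 in homozygous cells (log2 change of 0.96 ± 0.11 SE, adjusted p = 0.000406). TRIM61 on chromosome 4 had 0 counts in heterozygous cells, 0.334, 0.397 and 0.499 CPM in homozygous and 2.66, 3.9 and 3.78 in wild-type cells (adjusted p = 0.00386). Which clone or culture each library came from is not given, and clone and genotype cannot be told apart.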
